A study of Homo sapiens with 6 samples.

Results

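HOX genes encode homeodomain transcription factors and lie in 4 clusters, HOXA, HOXB, HOXC and HOXD, on 4 chromosomes. Members with the same number in different clusters form a paralogue group. All genes of a cluster are read from the same strand, and in the embryo low-numbered (3′, anterior) genes are switched on earlier and nearer the head than high-numbered (5′, posterior) genes. Adult tissues and tumour lines keep part of this pattern, and Polycomb and trithorax complexes, retinoic acid and the TALE cofactors PBX and MEIS are known to act on the clusters or with their proteins.

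The members were chosen by name, as genes of the deposited table called HOXA, HOXB, HOXC or HOXD with a number. Of the 26025 genes of the table, 36 such members are described, namely 10 HOXA, 9 HOXB, 8 HOXC and 9 HOXD genes. RNA was sequenced from NCI-H1299 cells, a human line established from a lung carcinoma, in 3 control (Ctrl) and 3 norepinephrine (NE) libraries. NE is the transmitter of sympathetic nerves and acts on cells through adrenergic receptors. NE-treated cells received 10 µM NE for 48 h in medium with 2% serum after 8 to 12 h in DMEM, and Ctrl cells received vehicle on the same schedule, which the labels call both DMSO and PBS. All 6 libraries came from 1 line, so the data describe that line only.

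The 6 libraries held between 16852751 and 17979206 reads on genes. Ctrl replicate 3 stood apart, with 7305 genes at 0 against 4829 and 4833 in the other Ctrl libraries and 3954 to 4416 in the NE libraries. Removing a smooth trend with exon GC content from each library (GC correction) lowered the number of significantly upregulated genes from 3693 to 1945. The number of significantly downregulated genes went from 3828 to 2834. The corrected fit covered 14955 genes, against 15013 without correction. HOX exons are GC-rich, with a median of 54.9% over the tested members against 47.5% over all tested genes. Calls and medians of HOX fold changes are therefore also given without Ctrl replicate 3 and after GC correction. Of 8 markers listed for the line, KRT8, KRT18 and VIM passed the minimum level and the lung epithelial markers EPCAM, CDH1, NKX2-1, SFTPB and NAPSA stayed at or under 6.78 normalized counts. The 8 markers summed to between 57220 and 105904 normalized counts per library. KRT18, KRT8 and VIM were themselves significantly downregulated by NE, with log2 fold changes of -1.62, -1.06 and -0.38. The 4 markers of other cells (PECAM1, ALB, COL1A1 and MYH11) summed to at most 79.6.

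Levels were compared between genes as FPKM, recomputed from whole reads over merged exons. Genes were compared between groups as normalized read counts, which are reads divided by 1 size factor per library. Sums over a cluster are given in FPKM. A member counted as expressed at a mean of at least 10 normalized counts over the 6 libraries. By this measure 26 of 36 HOX genes were expressed, 8 of 10 in HOXA, 9 of 9 in HOXB, 6 of 8 in HOXC and 3 of 9 in HOXD. A mean of at least 1 FPKM was met by 22 members. The 10 members under the minimum were HOXA2, HOXA11, HOXC5, HOXC11, HOXD1, HOXD3, HOXD4, HOXD10, HOXD11 and HOXD12. Their highest mean was 4.43 normalized counts, and their highest value in any library was 8.82, whereas the lowest expressed member, HOXA6, had a mean of 16.2.

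**Figure D1:**
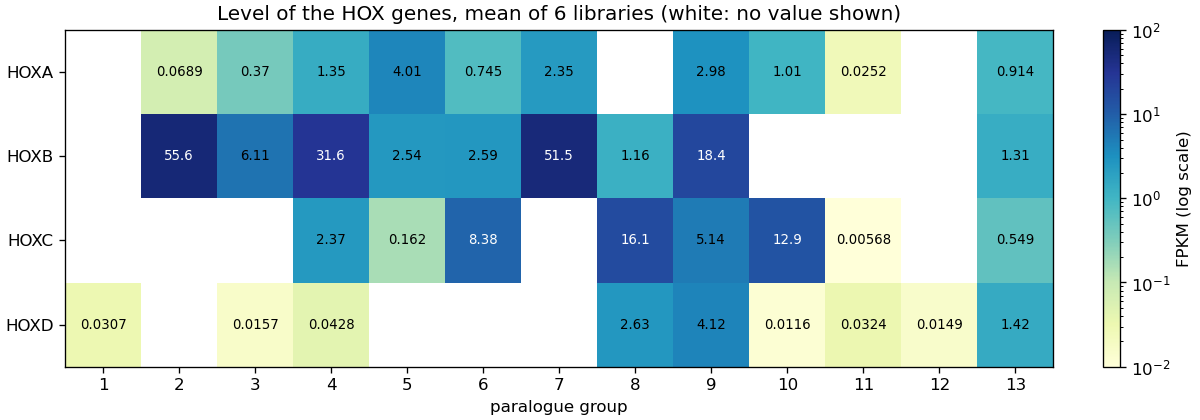
Mean FPKM over the 6 libraries (colour, log scale, with the value printed in each cell) for the HOX genes described, by cluster (rows) and paralogue group (columns). HOXB2 and HOXB7 have the highest values, every analysed HOXB gene is above 1 FPKM, and in HOXD only HOXD8, HOXD9 and HOXD13 are.

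The expressed genes were not spread evenly along the clusters. Of the anterior members (paralogue groups 1 to 3), 3 of 6 were expressed, against 13 of 15 central members (groups 4 to 8) and 10 of 15 posterior members (groups 9 to 13). All 4 members of group 9 and all 4 of group 13 were expressed. None of the 3 members of group 11 and not HOXD12, the only analysed member of group 12, reached the minimum. Expression within HOXD was limited to HOXD8, HOXD9 and HOXD13, so HOXD10, HOXD11 and HOXD12, all under the minimum, lay between expressed neighbours.

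HOXB genes had the highest levels. HOXB2, which patterns the hindbrain, was at 82.6, 86.1 and 62.3 FPKM in Ctrl and at 27.0, 35.3 and 40.6 FPKM in NE libraries. HOXB7, a central gene often studied in carcinomas, was at 54.7, 55.9 and 56.0 FPKM in Ctrl and at 42.0, 48.1 and 52.5 FPKM in NE libraries. HOXB4, known for expansion of blood stem cells, was at 46.5, 41.7 and 25.3 FPKM in Ctrl and at 21.4, 26.2 and 28.5 FPKM in NE libraries. HOXB2 was the highest member in each Ctrl library, whereas HOXB7 was the highest in each NE library.

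The fourth to sixth members were a posterior HOXB gene and a pair of HOXC genes. HOXB9 was at 18.4, 22.6 and 16.3 FPKM in Ctrl and at 15.3, 17.3 and 20.8 FPKM in NE libraries. HOXC8, a gene of the thoracic skeleton, was at 18.0, 16.6 and 16.0 FPKM in Ctrl and at 15.5, 15.6 and 15.0 FPKM in NE libraries. HOXC10 was at 11.7, 11.5 and 12.5 FPKM in Ctrl and at 12.2, 14.9 and 14.5 FPKM in NE libraries. HOXB9 and HOXC8 overlapped each other within both groups, so their order was not resolved.

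HOXC6, HOXB3, HOXC9 and HOXD9 completed the 10 highest members. HOXC6 was at 9.24, 8.23 and 5.42 FPKM in Ctrl and at 6.51, 9.33 and 11.5 FPKM in NE libraries. HOXB3, the neighbour of HOXB2, was at 6.54, 6.05 and 5.06 FPKM in Ctrl and at 4.91, 6.68 and 7.42 FPKM in NE libraries. Both ranges overlapped between Ctrl and NE and with each other.
HOXC9 was at 6.91, 7.48 and 1.74 FPKM in Ctrl and at 3.67, 5.45 and 5.61 FPKM in NE libraries. HOXD9, the highest HOXD gene, was at 4.61, 4.20 and 4.43 FPKM in Ctrl and at 3.76, 4.09 and 3.6 FPKM in NE libraries. The low HOXC9 value was that of Ctrl replicate 3. The other 16 expressed members had means between 0.37 FPKM (HOXA3) and 4.01 FPKM (HOXA5).

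Summed over its members, the HOXA cluster was higher and the HOXB cluster lower in NE-treated cells, with no overlap between groups. The 10 HOXA members summed to 10.9, 11.5 and 10.5 FPKM in Ctrl and to 15.9, 16.6 and 17.5 FPKM in NE libraries (10.97 ± 0.506 against 16.7 ± 0.773, SD, n = 3 each). HOXB summed to 215.8, 220.1 and 171.6 FPKM in Ctrl and to 117.7, 142.6 and 157.9 FPKM in NE libraries (202.5 ± 26.9 against 139.4 ± 20.3). Every HOXA sum with NE was above every Ctrl sum, and every HOXB sum with NE was below. Of the FPKM of the 36 members, HOXB made up 76.2% in Ctrl and 65.9% with NE, and HOXA 4.13% and 7.88%. The HOXC sums were 44.3 ± 5.91 and 47.0 ± 5.24 FPKM and the HOXD sums 8.05 ± 0.762 and 8.58 ± 0.952 FPKM, and in both clusters the groups overlapped. FPKM was scaled by reads on genes rather than by the size factor. HOXB3, for example, had means of 5.89 and 6.34 FPKM in Ctrl and NE, but of 788.5 and 766.8 normalized counts. No direction is therefore read from the HOXC and HOXD sums. The sums were not corrected for GC.

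**Figure D2:**
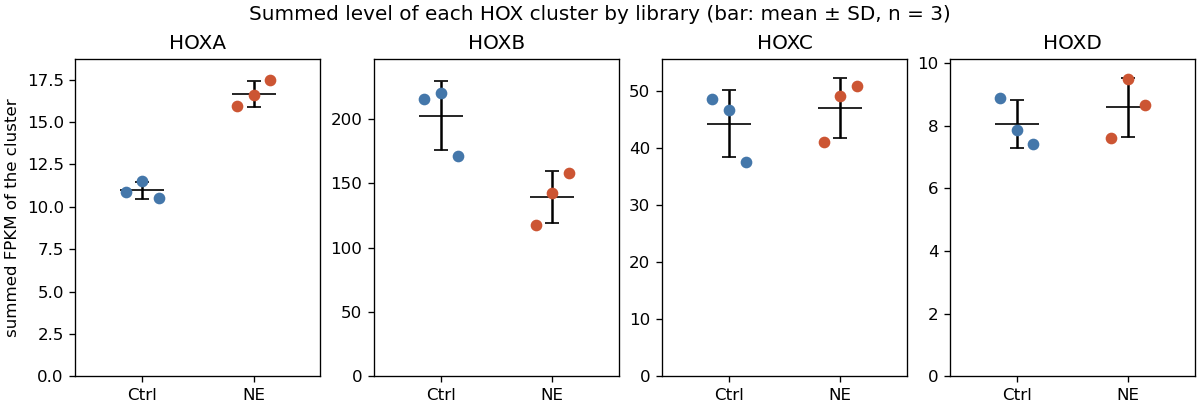
Summed FPKM of each HOX cluster (y axis, from 0, a separate scale per panel) in each Ctrl and NE library, with mean ± SD of 3 libraries. HOXA sums are between 10.5 and 11.5 in Ctrl and between 15.9 and 17.5 with NE, HOXB sums fall from 202.5 to 139.4, and HOXC and HOXD groups overlap.

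HOXB2 made up the larger share of the HOXB difference. Without HOXB2 the remaining 8 HOXB genes summed to 133.2, 134.0 and 109.3 FPKM in Ctrl and to 90.7, 107.3 and 117.3 FPKM with NE, and the groups overlapped. Without HOXA5 and HOXA13 the remaining 8 HOXA genes summed to 8.12, 8.70 and 6.73 FPKM in Ctrl and to 8.65, 10.0 and 11.1 FPKM with NE, again with overlap.

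NE was compared with Ctrl by limma on log2(normalized count + 1) over all 15013 genes at or above the minimum, with Benjamini-Hochberg adjustment, and a gene passed at an adjusted p under 0.05. HOXA5 and HOXA13 were significantly upregulated and HOXB2, HOXB4 and HOXB7 significantly downregulated. The 2 rises were thus in HOXA and the 3 falls in HOXB, and no HOXC or HOXD gene passed. The share of tested HOX genes was 7.69% upward and 11.5% downward, whereas 24.6% of all tested genes passed upward and 25.5% downward. With a further criterion of 1 or more in absolute log2 fold change, HOXA13 was higher and HOXB2 lower, each 3.85% of the tested members, against 7.47% and 6.55% of all tested genes. By adjusted p alone, HOX genes thus passed at a lower rate than all tested genes in both directions, a difference that was not tested.

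**Figure D3:**
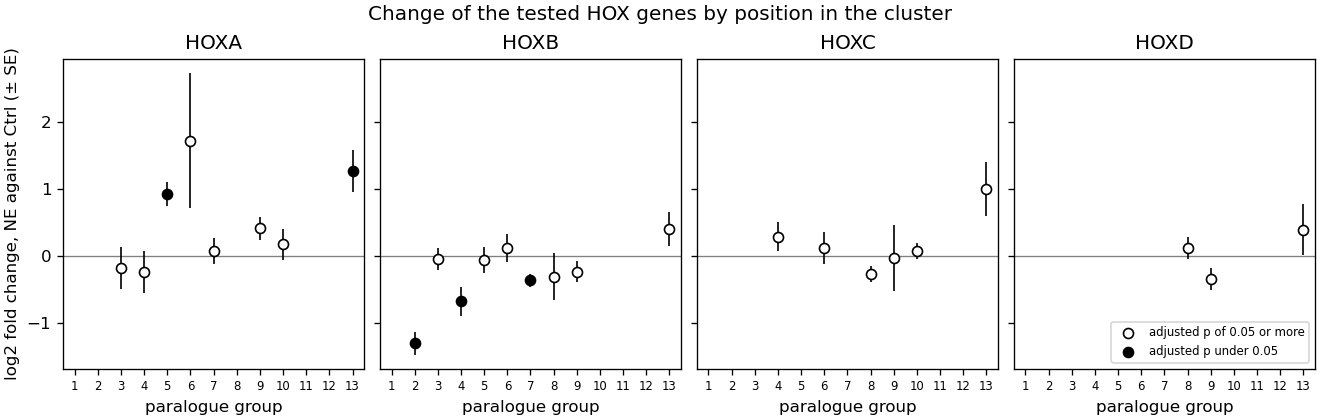
Log2 fold change (NE against Ctrl, limma, ± SE, 3 libraries per group) of the 26 tested HOX genes by paralogue group, 1 panel per cluster, with filled points for an adjusted p under 0.05. Filled points above 0 are in HOXA (groups 5 and 13) and filled points below 0 are in HOXB (groups 2, 4 and 7).

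The 10 HOXA members are read from the minus strand and span, in hg38, chr7:27100354-27200091. HOXA5 (ENSG00000106004, chr7:27141052-27143681) is known for its part in lung and airway development. Its normalized counts were 74.4, 76.7 and 90.2 in Ctrl and 172.9, 147.2 and 139.8 with NE. The groups were well apart, and the spread within each was small. The log2 fold change was 0.92 ± 0.181 (SE, limma adjusted p = 0.0028), with 1.07 after GC correction and 1.01 without Ctrl replicate 3. HOXA5 passed under every other setting of the fit and with any 1 library left out.

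HOXA13 (ENSG00000106031, chr7:27193503-27200091), the most posterior HOXA gene, patterns the distal limb and urogenital tract. Its normalized counts were 33.5, 35.3 and 73.5 in Ctrl and 122.5, 110.4 and 93.2 with NE. All NE values exceeded all Ctrl values, and the highest Ctrl value was that of Ctrl replicate 3. The log2 fold change was 1.27 ± 0.313 (SE, limma adjusted p = 0.0085), with 0.94 after GC correction and 1.62 without Ctrl replicate 3. HOXA13 likewise passed under every other setting, although its mean of 0.914 FPKM was low among the expressed members.

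The other tested HOXA genes did not pass. HOXA9, which drives growth of blood progenitors and some leukaemias, had 136.1, 139.0 and 118.6 normalized counts in Ctrl and 147.2, 183.1 and 196.5 with NE. Its groups did not overlap, with a log2 fold change of 0.41 (limma adjusted p = 0.0753) that passed after GC correction (0.67, limma adjusted p = 0.0102). HOXA6 had 13.6, 19.7 and 0 normalized counts in Ctrl and 17.8, 24.2 and 21.9 with NE, so its log2 fold change of 1.72 (limma adjusted p = 0.182) rested on the 0 in Ctrl replicate 3, without which it was 0.35. The log2 fold changes of HOXA3, HOXA4, HOXA7 and HOXA10 were -0.18, -0.24, 0.08 and 0.17. The median over the 8 tested HOXA genes was 0.29, against 0.010 over all tested genes, with 0.62 after GC correction and 0.32 without Ctrl replicate 3.

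The 9 HOXB members are also read from the minus strand and span chr17:48540894-48728750. HOXB2 (ENSG00000173917, chr17:48540894-48545109), at the 3′ end of the analysed members, had 3689, 3854 and 2696 normalized counts in Ctrl and 1136, 1416 and 1568 with NE. All NE libraries were below all Ctrl libraries. HOXB2 fell by 59.8% between the group means, from 3413 ± 627 to 1373 ± 219 (SD, n = 3 each). The log2 fold change was -1.31 ± 0.166 (SE, limma adjusted p = 0.0004), with -0.95 after GC correction and -1.47 without Ctrl replicate 3, and it passed under every other setting. Its neighbour HOXB3 had 883.8, 819.2 and 662.4 normalized counts in Ctrl and 624.5, 809.7 and 866.3 with NE, with a log2 fold change of -0.04 (limma adjusted p = 0.839). The log2 ratio of HOXB2 to HOXB3 counts, which does not depend on how libraries are scaled, was 2.06, 2.23 and 2.02 in Ctrl and 0.863, 0.806 and 0.855 with NE. The adjacent genes thus changed unequally, by 1.26 on the log2 scale, and the groups did not overlap.

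HOXB4 (ENSG00000182742, chr17:48575507-48578350) had 1692, 1522 and 893.7 normalized counts in Ctrl and 733.2, 855.2 and 898.2 with NE. The groups overlapped, since Ctrl replicate 3 was below NE replicate 3. HOXB4 fell with a log2 fold change of -0.68 ± 0.219 (SE, limma adjusted p = 0.0284), but this was -0.17 after GC correction (limma adjusted p = 0.388). Without Ctrl replicate 3 it was -0.96, and it did not pass when any 1 of the other 5 libraries was left out, with limma adjusted p between 0.0577 and 0.114.

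HOXB7 (ENSG00000260027, chr17:48607232-48633572) had 1513, 1549 and 1499 normalized counts in Ctrl and 1093, 1193 and 1256 with NE. The Ctrl values were close together and all above the NE values. The log2 fold change was -0.37 ± 0.103 (SE, limma adjusted p = 0.0153), and -0.11 after GC correction (limma adjusted p = 0.424). HOXB7 did not pass without Ctrl replicate 2 (0.0658), NE replicate 1 (0.0508) or NE replicate 2 (0.0593).

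**Figure D4:**
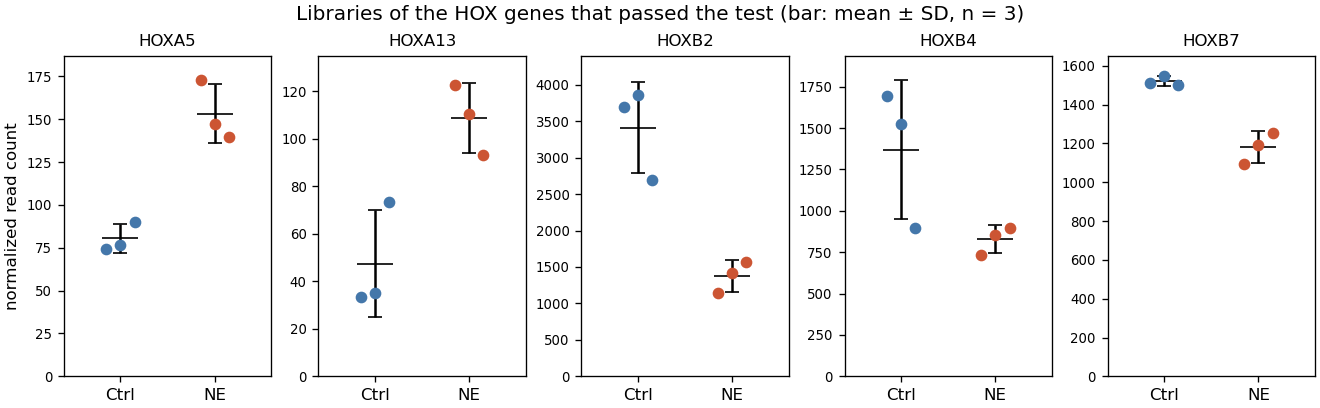
Normalized read counts (y axis, from 0, a separate scale per panel) of the 5 HOX genes that passed, in each Ctrl and NE library, with mean ± SD of 3 libraries. NE values are above all Ctrl values for HOXA5 and HOXA13 and below them for HOXB2 and HOXB7, whereas HOXB4 overlaps through Ctrl replicate 3 at 893.7.

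Of the other HOXB genes, HOXB5, HOXB6, HOXB8 and HOXB9 had log2 fold changes of -0.06, 0.12, -0.31 and -0.24, and HOXB13, a prostate and hindgut gene at the 5′ end, of 0.40 (limma adjusted p = 0.215). The median over the 9 HOXB genes was -0.24, and it changed sign to 0.18 after GC correction. HOXB2 was then the only HOXB gene to pass downward, and HOXB4 and HOXB7 stayed below 0 without passing. GC correction left HOXB13 higher, at 0.91 (limma adjusted p = 0.0117). Without Ctrl replicate 3 the HOXB median was -0.36 and HOXB8 and HOXB9 also fell, by 0.70 and 0.36 on the log2 scale. Leaving out Ctrl replicate 1 or Ctrl replicate 2 instead brought the HOXB median to -0.126 or -0.0996.

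HOXC (chromosome 12) and HOXD (chromosome 2) are read from the plus strand. HOXC8 had 792.7, 732.1 and 680.1 normalized counts in Ctrl and 639.3, 617.0 and 572.0 with NE, a log2 fold change of -0.27 (limma adjusted p = 0.0812). HOXC13, a hair and nail gene, had 20.9, 14.5 and 8.82 normalized counts in Ctrl and 29.6, 33.9 and 23.8 with NE, a log2 fold change of 0.995 (limma adjusted p = 0.0669). In HOXC8 all NE values were below and in HOXC13 all were above the Ctrl values, and neither gene passed. After GC correction HOXC13 passed at 1.49 (limma adjusted p = 0.0138) and HOXC10 at 0.45 (0.0200). HOXC9 had 209.4, 227.1 and 51.0 normalized counts in Ctrl and 104.7, 148.2 and 147.1 with NE. Its log2 fold change was -0.03, and -0.72 without Ctrl replicate 3, where it passed (limma adjusted p = 0.0037). HOXC4, HOXC6 and HOXC10 had log2 fold changes of 0.29, 0.12 and 0.07, and the HOXC median was 0.10, with 0.42 after GC correction and -0.02 without Ctrl replicate 3.

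In HOXD, HOXD9 had 157.1, 143.1 and 146.0 normalized counts in Ctrl and 120.6, 124.9 and 106.0 with NE. All NE values were below all Ctrl values, yet the log2 fold change of -0.34 did not pass (limma adjusted p = 0.103) and turned to 0.27 after GC correction. HOXD8 and HOXD13, the latter a gene of digit formation, had log2 fold changes of 0.12 and 0.39. The HOXD median was 0.12, with 0.46 after GC correction and 0.0001 without Ctrl replicate 3.

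Among the 26 tested members, 4 had all NE libraries above all Ctrl libraries (HOXA5, HOXA9, HOXA13 and HOXC13) and 4 had all below (HOXB2, HOXB7, HOXC8 and HOXD9). These are 15.4% of the members in each direction, against 29.7% and 28.9% of all tested genes. After GC correction 6 members passed upward (HOXA5, HOXA9, HOXA13, HOXB13, HOXC10 and HOXC13) and HOXB2 alone downward. This was 23.1% and 3.85% of the members, with a background of 13% upward and 19.0% downward. Without Ctrl replicate 3 the rises were again HOXA5 and HOXA13 and the falls were 7 (HOXB2, HOXB4, HOXB7, HOXB8, HOXB9, HOXC8 and HOXC9), with a background of 31.8% upward and 32.6% downward. The balance of rises and falls thus depended on the GC trend and on Ctrl replicate 3, and their part in the result was not tested. HOXA5, HOXA13 and HOXB2 passed in the same direction in all 3 fits.

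**Figure D5:**
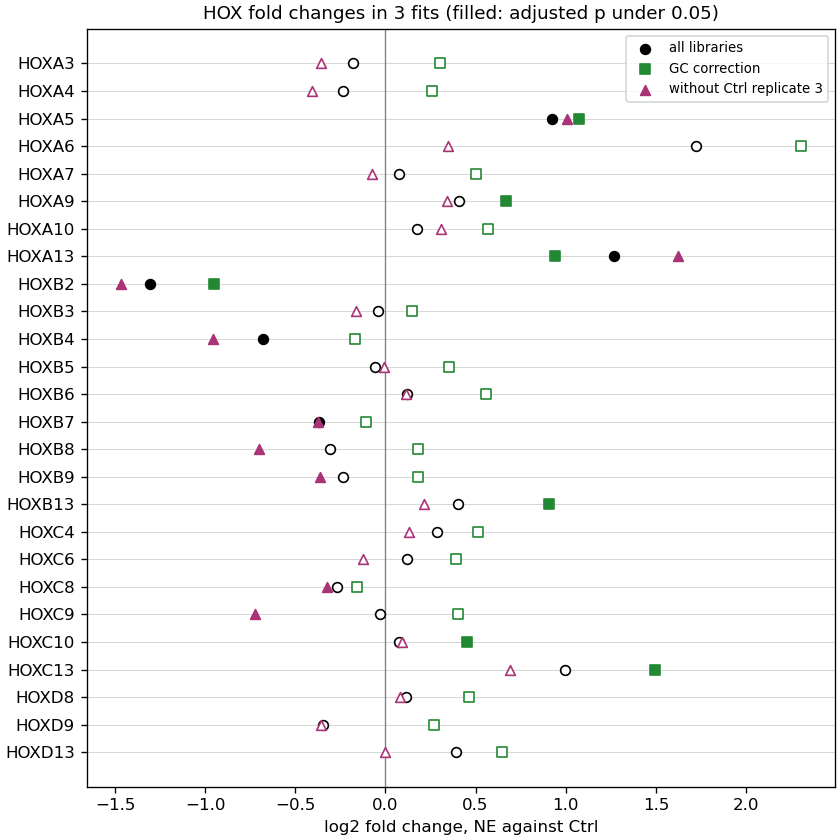
Log2 fold change (NE against Ctrl) of each tested HOX gene in 3 limma fits, with circles for all libraries, squares for GC correction and triangles without Ctrl replicate 3, filled where the adjusted p was under 0.05. HOXA5, HOXA13 and HOXB2 are filled in all 3, and GC correction places 22 of the 26 genes above 0, against 14 in the fit of all libraries.

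By position, the 3 tested anterior genes had no rise and 1 fall (HOXB2), with a median log2 fold change of -0.18. The 13 central genes had 1 rise (HOXA5) and 2 falls (HOXB4 and HOXB7), with a median of 0.08. The 10 posterior genes had 1 rise (HOXA13) and no fall, with a median of 0.28. After GC correction the medians were 0.15, 0.39 and 0.61, with 1 fall among the anterior genes, 1 rise among the central genes and 5 rises among the posterior genes. Without Ctrl replicate 3 the medians were -0.36, -0.07 and 0.15, with 4 falls among the central genes and 2, HOXB9 and HOXC9, among the posterior genes. The order of these pooled medians was the same in the 3 fits, but it did not hold within each cluster. In the fit of all libraries the central and posterior medians were 0.50 and 0.41 in HOXA. They were 0.12 and 0.07 in HOXC, and 0.12 and 0.02 in HOXD. HOXB followed the pooled order, with -0.68, -0.31 and 0.08, and 2 of the 3 tested anterior genes were HOXB genes. No difference between positions was tested, since neighbours share a locus. In paralogue group 13 all 4 tested members had log2 fold changes above 0 (1.27 for HOXA13, 0.40 for HOXB13, 0.995 for HOXC13 and 0.39 for HOXD13), but only HOXA13 passed, and HOXD13 was at 0.00 without Ctrl replicate 3. In group 9, with 4 tested members as well, the values were 0.41 for HOXA9, -0.24 for HOXB9, -0.03 for HOXC9 and -0.34 for HOXD9, and all 4 were above 0 after GC correction.

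The log2 ratio of HOXA4 to HOXA5 was -0.65, -0.64 and -1.41 in Ctrl and -2.37, -2.35 and -1.46 with NE. That of HOXA10 to HOXA13 was 0.511, 0.778 and -0.019 in Ctrl and -0.988, -0.505 and -0.516 with NE. In both pairs the 5′ gene gained on the other, and the groups did not overlap, although for the former pair Ctrl replicate 3 and NE replicate 3 lay close together. These ratios were not corrected for GC. Exon GC was 54.8% in HOXA10 and 43.8% in HOXA13. Their log2 fold changes were 0.17 and 1.27, and came closer after GC correction, at 0.57 and 0.94. Those of HOXA4 and HOXA5 were -0.24 and 0.92, and 0.26 and 1.07 after GC correction. HOXA11, between HOXA10 and HOXA13, was under the minimum. These were the 2 of 7 pairs of successive tested HOXA genes whose groups did not overlap. The other 5 overlapped, HOXA5 with HOXA6 among them. Over all clusters the groups were apart in 8 of 22 such pairs. These were 4 of 8 in HOXB, 1 of 5 in HOXC and 1 of 2 in HOXD, besides the 2 in HOXA. Pairs of other neighbouring genes were not examined, so no background share is given and the counts are not read as particular to HOX genes. HOXB2 with HOXB3, HOXB3 with HOXB4 and HOXB6 with HOXB7, like both HOXA pairs, hold a gene that passed by itself. HOXB9 with HOXB13, HOXC10 with HOXC13 and HOXD8 with HOXD9 do not.

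The exons of 24 members share bases with another annotated gene, which the counting could assign to either gene or to neither. The shared part was 62.5% of exon bases in HOXA7, 47.8% in HOXA4 and 40.1% in HOXA6. It was at most 3.54% in the 5 genes that passed. No source used here states that strand was used in counting, so reads of a HOX gene and of an antisense RNA over the same bases cannot be told apart. Of 17 listed noncoding RNAs of the clusters, 9 were tested, and HOXC-AS1 alone passed, with 25.1, 33.2 and 24.5 normalized counts in Ctrl and 10.9, 19.4 and 8.22 with NE. Its log2 fold change was -1.12 (limma adjusted p = 0.0492), and -0.60 after GC correction (0.296). After GC correction HOXB-AS2 and HOXB-AS3 passed upward, at 1.35 (limma adjusted p = 0.0280) and 0.95 (0.0312). Of the 9 tested RNAs, 0% passed upward and 11.1% downward, beside 24.6% and 25.5% of all tested genes. After GC correction the shares were 22.2% and 0%, beside 13% and 19.0%.

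NE signals in part through cAMP, and the CREB factors that respond to it bind the cAMP response element (CRE), so HOX promoters were searched for its letters. RefSeq promoters on GRCh38.p14, from 250 bases before to 50 after a gene start, matched 19 members through 26 entries. HOXA5 and all analysed HOXB genes, with HOXB2, HOXB4 and HOXB7 among them, had no entry. Of HOXC only HOXC4 and HOXC5 had one, with the same interval, and HOXA3 had several entries. The full CRE (TGACGTCA, both strands) was in 0 of 26 HOX promoters and in 1.85% of all 35116 promoters. Its short form TGACG, which every full CRE contains, was in 7 HOX promoters (26.9%) and in 24.6% of all promoters. The paired HOX and PBX motif TGATNNAT was in 2 (7.69%) against 7.40%. The shares of these HOX promoters, which include no HOXB gene, were close to those of all promoters for the latter motifs. A match is a description of letters, not of binding.

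Both printed promoters belong to HOXA genes whose NE libraries were all above Ctrl. The HOXA13 promoter (chr7:27200042-27200341, minus strand) is the only entry for a gene that passed, and it has a GC content of 76.3% and 44 CpG, against medians of 57.3% and 22.5 over the HOX promoters. The HOXA9 promoter (chr7:27165488-27165787, minus strand) has a GC content of 48% and 1 TGACG, which starts at -67 from the gene start and is in capitals. HOXA13 has none of the 3 motifs.
HOXA13: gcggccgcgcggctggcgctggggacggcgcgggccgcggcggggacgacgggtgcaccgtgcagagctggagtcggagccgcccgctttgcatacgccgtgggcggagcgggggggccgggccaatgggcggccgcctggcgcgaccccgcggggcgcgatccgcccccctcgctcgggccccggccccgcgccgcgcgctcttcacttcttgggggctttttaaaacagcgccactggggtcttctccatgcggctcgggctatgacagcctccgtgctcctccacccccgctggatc
HOXA9: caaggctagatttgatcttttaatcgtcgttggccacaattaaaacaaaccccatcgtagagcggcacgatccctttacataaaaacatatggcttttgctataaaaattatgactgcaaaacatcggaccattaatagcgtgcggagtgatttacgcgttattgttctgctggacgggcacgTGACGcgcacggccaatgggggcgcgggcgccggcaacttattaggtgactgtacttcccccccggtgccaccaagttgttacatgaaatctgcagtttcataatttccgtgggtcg

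Of the 9 listed TALE cofactors that bind DNA with HOX proteins, 8 were tested. MEIS1 and MEIS2 rose and MEIS3 fell (25% and 12.5%, beside 24.6% and 25.5% of all tested genes). MEIS2 had 366.5, 318.4 and 327.3 normalized counts in Ctrl and 537.6, 593.7 and 638.7 with NE, a log2 fold change of 0.80 (limma adjusted p = 0.0010) that also passed after GC correction (0.53). MEIS1 was at 0.95 and MEIS3 at -0.77, and neither passed after GC correction. The shares of the list were then 12.5% upward and 0% downward, beside 13% and 19.0%. Of 6 other homeobox genes related to HOX, MNX1 and GBX2 were tested and neither passed.

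Polycomb proteins keep HOX genes silent and trithorax proteins keep them active. Of 27 tested Polycomb genes 9 rose and 7 fell, with a median log2 fold change of 0.15. These shares of 33.3% and 25.9% stand beside 24.6% and 25.5% of all tested genes. After GC correction 5 rose and 6 fell, or 18.5% and 22.2% beside 13% and 19.0%. BMI1, a core protein of Polycomb complex PRC1, rose by 1.37 on the log2 scale and PHC2, another PRC1 protein, fell by 1.36. JARID2, which partners PRC2, rose by 1.11 and PCGF5, a PRC1 protein, by 0.89. BMI1, JARID2 and PHC2 also passed after GC correction, and PCGF5 did not. Of 19 tested trithorax and activator genes 5 rose and 6 fell (26.3% and 31.6%, near the background), with a median of 0.09, and after GC correction 4 rose and 2 fell (21.1% and 10.5%). AFF4, an elongation factor scaffold, rose by 1.17, and the methyltransferase genes KMT2C and KMT2A by 0.76 and 0.62, whereas WDR5, a core subunit shared by these enzymes, fell by 0.72. After GC correction AFF4 (0.63) and KMT2A (0.29) passed, and KMT2C (0.16) and WDR5 (-0.22) did not.

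Retinoic acid is the classical inducer of anterior HOX genes. All 7 tested genes of its list fell, against 25.5% of all tested genes, with a median log2 fold change of -0.64, but after GC correction the median was -0.11 and only STRA6 passed. STRA6, the cell-surface receptor for retinol uptake, had 288.0, 265.5 and 248.9 normalized counts in Ctrl and 78.1, 80.4 and 69.4 with NE, a log2 fold change of -1.80 (limma adjusted p = 9.2e-05) and of -1.30 after GC correction. The receptor genes RARA and RXRA were at -0.74 and -0.64 and CRABP2, which carries retinoic acid in the cell, at -0.65. The enzymes ALDH1A1, ALDH1A2 and ALDH1A3, which make retinoic acid, were all under the minimum, with at most 13.6 normalized counts in any library.

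The genes that flank the clusters changed in both directions. Of 17 tested, 6 rose and 5 fell (35.3% and 29.4%, beside 24.6% and 25.5% of all tested genes), with a median log2 fold change of -0.02. After GC correction 2 rose and 6 fell (11.8% and 35.3%, beside 13% and 19.0%). ATF2, near HOXD and itself a CRE-binding factor, was at 1.06 and TAX1BP1, near HOXA, at 0.93. SMUG1, near HOXC, was at -0.96 and ATP5MC1, near HOXB, at -0.86. All 4 passed also after GC correction.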

How the data were processed

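RNA was measured in 3 Ctrl and 3 NE libraries of NCI-H1299 cells, grouped by the sample labels. Nothing in them says whether replicates were separate cultures, so p-values cover the spread between these libraries only. Per the paper's methods, the authors aligned 125 bp paired reads to hg38 with HISAT2 2.0.5 and counted them per gene with featureCounts 1.5.0-p3. The annotation version and strand setting are not given in the sources used here. The values the authors deposited are a signal, not FPKM: each count was divided by a size factor of its library, and 100% of values came out as whole reads (tolerance 0.1 reads) once that factor, read from low values, was removed. Reads carry no molecular identifiers.

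limma 3.58.1 (lmFit, eBayes with trend, R 4.3.3) was run on log2(value + 1) for 15013 genes (mean of 10 or more normalized counts), with Benjamini-Hochberg adjustment over all of them. Fold changes of low genes depend on this scale. That of HOXA6, the lowest tested member, was 1.72, against 0.935 by edgeR and 0.953 by DESeq2. GENCODE v44 on hg38 matched 25813 of 26025 genes and gave exon lengths, GC content and positions. GC correction removed a spline with 5 degrees of freedom per library. edgeR 4.0.16, DESeq2 1.42.0 and voom were run on the recovered reads. The fits were tested on simulated data. An exact permutation test of 3 against 3 libraries cannot go below p = 0.1. Some genes that match the name rule or a list are not reported here. Every other tested HOX gene is named, with values per library for those that passed and the 10 highest by FPKM, and up to 4 genes of each other list that passed, apart from the line markers. Further genes with values per library (HOXA6, HOXA9, HOXC13, HOXC-AS1, MEIS2, STRA6), and ALDH1A1, ALDH1A2, ALDH1A3, HOXB-AS2, HOXB-AS3, MNX1 and GBX2, were named after their values were seen. Members, lists and tests were chosen with earlier results of these data known.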

Additional observations from a re-analysis of the deposited data

How the results depend on the processing

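Of 520 fold changes of members under other settings, 464 kept direction and call, 24 changed sign, 19 gained and 13 lost the call. Settings that changed only the filter, the eBayes option or the replicate block left each fold change as it was. No sign could turn under those settings. With GC correction 8 of the 26 members changed sign, 12 kept direction and call, 4 gained and 2 lost the call. The 520 include GC correction without Ctrl replicate 3. Rises of HOX members numbered 6 after GC correction (2 as reported), 4 by unadjusted p, 1 with the fold criterion and 10 after GC correction without Ctrl replicate 3, an alternative chosen after seeing the data. Falls numbered 1 after GC correction, 1 with the fold criterion and 1 to 7 with a library left out, with 7 without Ctrl replicate 3 and 1 without Ctrl replicate 2, NE replicate 1 or NE replicate 2. Over all 15013 tested genes, rises numbered 4267 by unadjusted p and 1121 with the fold criterion. Falls over all genes numbered 983 with the fold criterion and 2958 to 4894 with a library left out. Over the 14955 genes of the GC correction, 1945 rose and 2834 fell, and 2857 rose and 3489 fell without Ctrl replicate 3 as well. Of the 26 tested HOX members, 2 fell under the latter setting, HOXB2 and HOXB4 (-0.328, limma adjusted p = 0.0153). Cluster medians after GC correction, and the same without Ctrl replicate 3, were 0.618 and 0.737 for HOXA, 0.18 and 0.0882 for HOXB and 0.464 and 0.411 for HOXD. That of HOXC was 0.425 after GC correction and -0.0163 to 0.283 with a library left out. The cause of these shifts was not tested.

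Signs turned after GC correction for HOXA3 (0.302), HOXA4 (0.257), HOXB3 (0.145), HOXB5 (0.35), HOXB8 (0.181), HOXB9 (0.18), HOXC9 (0.4) and HOXD9 (0.272). Without Ctrl replicate 3 as well, they were 0.244 for HOXA3, 0.204 for HOXA4, 0.0882 for HOXB3, 0.504 for HOXB5, 0.157 for HOXB9 and 0.411 for HOXD9. HOXA7 was at -0.00166 under quantile normalization. With a library left out, fold changes ranged from -0.0719 to 0.16 for HOXA7, -0.164 to 0.0973 for HOXB3, -0.0574 to 0.27 for HOXB6, -0.126 to 0.31 for HOXC6 and -0.723 to 0.344 for HOXC9. None of these genes had passed.

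Replicate numbers share only a number (correlations of deviations of -0.163, 0.0799 and -0.151). With the replicate number as a block 2 HOX genes rose and 2 fell, and HOXB4 was lost (limma adjusted p = 0.0559). Over all genes 3150 rose and 3358 fell with this block, and the cluster medians were as reported. Not every library correlated best with its own number. The numbers of expressed members under other thresholds were 22, 23 and 30 against 26. The 10 members under the minimum were left out of the reported test.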
